A study of Mus musculus with 18 samples.

Results

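The cytosolic ribosomal protein genes were followed in RNA-Seq of the mouse lung cancer line ED1SQ4 after 72 hours of culture with vehicle or with the kinase inhibitor CYC065 at 0.5 μM, which acts on CDK2 and CDK9. The 6 groups were unsorted cells, 2N cells and 4N cells, each with vehicle and with CYC065. The 2N (diploid) and 4N (polyploid) populations had been sorted by DNA content after a live DNA stain, and a 4N DNA content is also that of cycling cells in G2 or mitosis. All groups share the cell line and the treatment time, and the labels do not state whether the unsorted and sorted cells of a treatment came from the same culture. Members were the genes whose symbol starts with Rpl or Rps followed by a digit, with Rplp0, Rplp1, Rplp2 and Rpsa, without a hyphen and without the Rps6k kinases. There were 93 such genes among 55450 in the table. They comprised 77 core ribosomal proteins (46 of the large subunit including its stalk, 31 of the small subunit), 15 paralogs and retrogenes, and Rps19bp1. Rps19bp1 shares the symbol but encodes a binding partner of Rps19, not a ribosomal protein.

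The mammalian cytosolic ribosome is built from ribosomal RNA and a set of proteins, nearly all present as 1 copy each. The small subunit decodes messenger RNA and the large subunit forms peptide bonds. Ribosomal protein genes are among the most highly expressed genes of growing cells, and their mRNAs begin with a pyrimidine-rich terminal oligopyrimidine (TOP) sequence, through which mTOR signaling and Larp1 control their translation. Their coding sequences have been copied many times into processed pseudogenes, so that short reads from a ribosomal protein mRNA often fit several places in the genome.

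Each group held 3 columns of RSEM expected counts. Their titles number them as replicates 1 to 3, whereas their descriptions name them as parts 1 to 3 of 1 library, and no label states whether separate cultures were sequenced. Over genes with whole counts, these parts differed by no more than sampling noise (chi-square per degree of freedom 0.992 to 1.02). Over genes with fractional counts, the same value was 4.94 to 8.85, and over the 87 members tested it was 0.965 to 1.62, highest in vehicle unsorted cells. The 3 parts were therefore summed and counted as 1 sample, so that each group rests on 1 library, with totals of 54750203 to 62795507 counts. A difference between 2 libraries has no replicate check, and the intervals given with single differences (exact, 95%) cover counting error only. Where the parts of the members differed by more than sampling noise, these intervals are too narrow. Most markers of lung epithelium, the tissue of the label, were absent or near 0. Epcam, Cdh1, Krt7, Krt8, Krt18 and Krt19 were all below 1 count per 1000000 scaled counts (CPM) in every library, and Nkx2-1, Sftpa1 and Scgb1a1 had 0 counts, which allows up to 3 counts per library. Sftpc, Sftpb and Napsa had at most 0.075 CPM. Hopx, the remaining lung marker of 7 listed, was detected at 1.27 to 2.06 CPM with vehicle and at 5.6 to 12.9 CPM with CYC065, and rose in the fit over populations (log2 change 2.44, edgeR, adjusted p = 0.000505). The mesenchymal genes Vim, Col1a1 and Col1a2 stood between 2144 and 7077 CPM. Ptprc, a leukocyte marker, had 0.015 CPM at most. Of 12 markers of immune, endothelial and mesenchymal cells, 8 were tested in the fit over populations described below, 6 rose and 1 (Vim) fell. Their summed level was 10549 to 12248 CPM in the vehicle libraries and 11971 to 18041 CPM in the CYC065 libraries, and their part in the changes of the ribosomal protein genes was not tested. In such bulk libraries, fewer cells of a type and less RNA per cell cannot be told apart.

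Ribosomal protein genes took a smaller share of the counts in each CYC065 library than in its vehicle library. Their share was 3.08% in vehicle unsorted cells, 3.21% in vehicle 2N cells and 3.17% in vehicle 4N cells. With CYC065 it was 2.15% in unsorted cells, 2.66% in 2N cells and 2.53% in 4N cells. Among the 3 parts of a library, the share moved at most from 3.079% to 3.091%, a technical spread. The rRNA-like genes Gm26917 and Gm42418 moved the other way, from 8.74% to 12% of counts in unsorted cells, from 2.62% to 7.21% in 2N cells and from 1.68% to 6.53% in 4N cells. Genes of the mitochondrial genome took 1.04% and 1.69%, 0.38% and 0.701%, and 0.614% and 0.793% in the same pairs. After mitochondrial genes and the 20 most abundant other genes were left out of the total, the ribosomal protein share was 3.78% with vehicle and 2.83% with CYC065 in unsorted cells, 3.71% and 3.23% in 2N cells, and 3.6% and 3.01% in 4N cells. The order within each pair was the same with and without these genes.

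**Figure D1:**
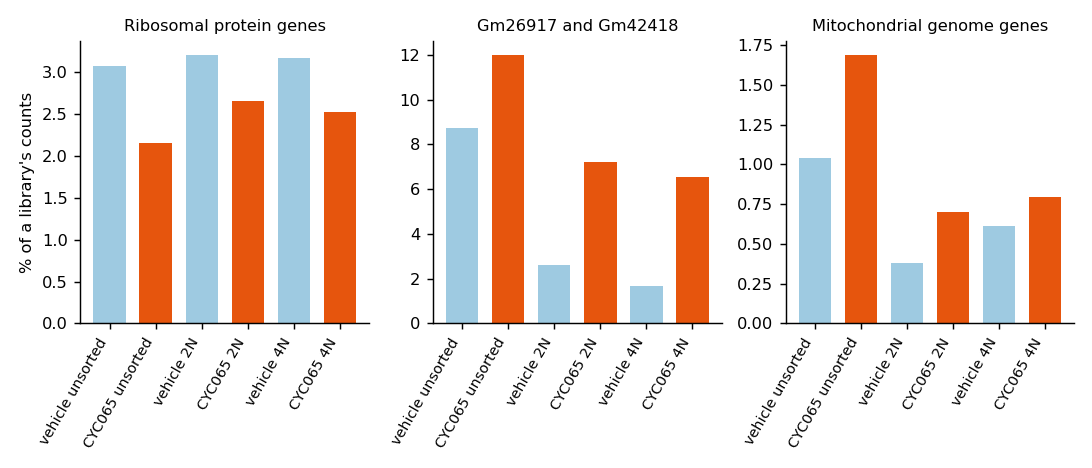
Share of each library's counts (%, 1 bar per library, blue for vehicle and orange for CYC065) taken by the 93 ribosomal protein genes, by Gm26917 and Gm42418, and by genes of the mitochondrial genome. The ribosomal protein share was 3.08% to 3.21% in the vehicle libraries and 2.15% to 2.66% in the CYC065 libraries, while the other bars were higher with CYC065 in each pair.

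To ask how CYC065 treatment moved these genes in each population, TMM-scaled counts were compared between the CYC065 and vehicle libraries. A gene was compared where 1 of the libraries or both had 30 counts or more, which all 77 core genes passed. The core genes were lower together, by a similar and modest amount in the 3 populations. In unsorted cells, their median log2 fold change was -0.40 (0.759 times the vehicle level), with single genes between -1.02 and 0.05. The median was -0.38 in 2N cells (range -0.85 to 0.09) and -0.42 in 4N cells (range -0.96 to -0.05). Over all genes tested, the medians were -0.01, 0.01 and 0.03. Values below 0 were found for 76 of the 77 core genes in unsorted cells (50.7% of all genes tested), for 73 in 2N cells (49.7%) and for all 77 in 4N cells (48.2%). Both subunits took part, with medians of -0.41 for the large and -0.39 for the small subunit in unsorted cells, -0.37 and -0.38 in 2N cells, and -0.41 and -0.43 in 4N cells. In all 3 populations, 72 of the 77 core genes were lower, against 38.7% of the 13537 genes compared in each. The other 5 core genes, named because of their values, were Rpl10a, Rpl23a, Rps20 and Rps29, which were higher in 2N cells only, and Rpl22, which was higher in unsorted cells only. Their values above 0 lay between 0.05 and 0.09, and the counting interval of Rpl22 included 0.

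Large changes were rare among the core genes. Beyond 1 on the log2 scale, only Rpl36a was lower, in unsorted cells. Counting all members tested, 5 of 87 were lower by more than 1 in unsorted cells, against 12.6% of all genes tested. There were 2 in 2N cells (11.5% of all genes) and 3 in 4N cells (10.1%), and none was higher by more than 1. The SD over the 77 core genes was 0.20 to 0.22 in each population, against 1.12 to 1.19 over all genes tested. The order of the core genes was shared in part by the populations. Across the 77 genes, which are not independent replicates, the values in 2N and 4N cells had a Pearson r of 0.82, those in unsorted and 2N cells 0.72, and those in unsorted and 4N cells 0.63. These pairs have no library in common, although cultures may be shared, and over all 13537 genes the same coefficients were 0.89, 0.81 and 0.79.

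**Figure D2:**
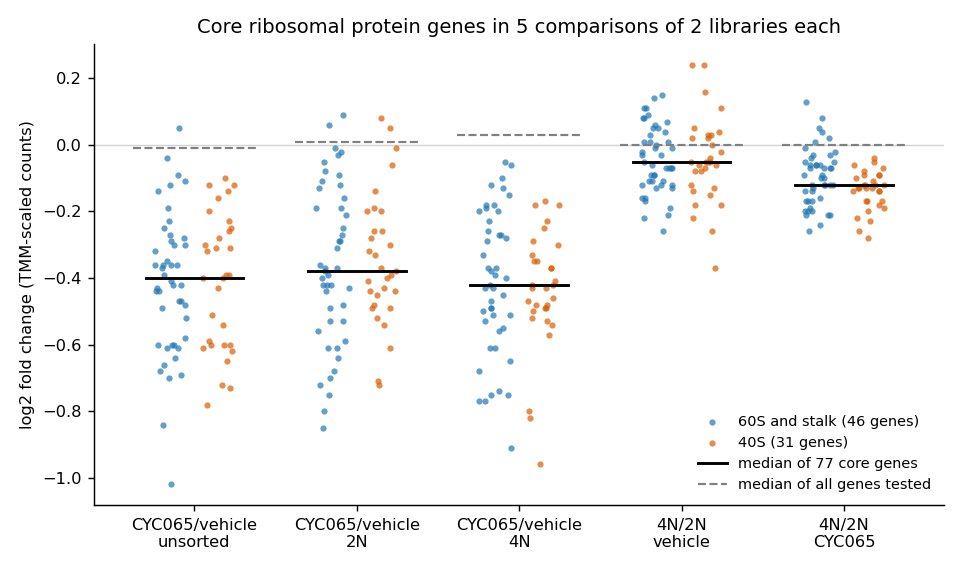
Log2 fold change of TMM-scaled counts (y axis) for each core ribosomal protein gene (1 point per gene, blue for the large subunit with stalk and orange for the small subunit) in 5 comparisons of 2 libraries each. Solid black lines mark the median of the 77 core genes and dashed grey lines that of all genes tested; the core medians were -0.40, -0.38 and -0.42 for CYC065 against vehicle, and -0.05 and -0.12 for 4N against 2N cells.

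The CYC065 effect common to the 3 populations was tested with edgeR's quasi-likelihood test on the 6 libraries, with population as a block and Benjamini-Hochberg adjustment over all 14762 genes tested. Its 2 residual degrees of freedom measure how far the effect differed between unsorted, 2N and 4N cells, not between cultures. Of the 77 core genes, 54 fell (adjusted p under 0.05) and 0 rose, against 27.1% of all genes that fell and 27.7% that rose. At an unadjusted p under 0.05, 60 core genes passed, and the share of all genes at that threshold was not computed. The fall was called for 32 of 46 genes of the large subunit and for 22 of 31 genes of the small subunit, with a median log2 change of -0.39 in both. Of all 87 members tested, 58 fell. The 23 core genes that were not called had log2 changes between -0.34 (Rpsa) and -0.04 (Rpl10a). The count of core genes called was 67 with DESeq2 (32.2% of all genes lower), 28 without the 2N libraries (17.6%) and 27 without the 4N libraries (19.2%).

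**Figure D3:**
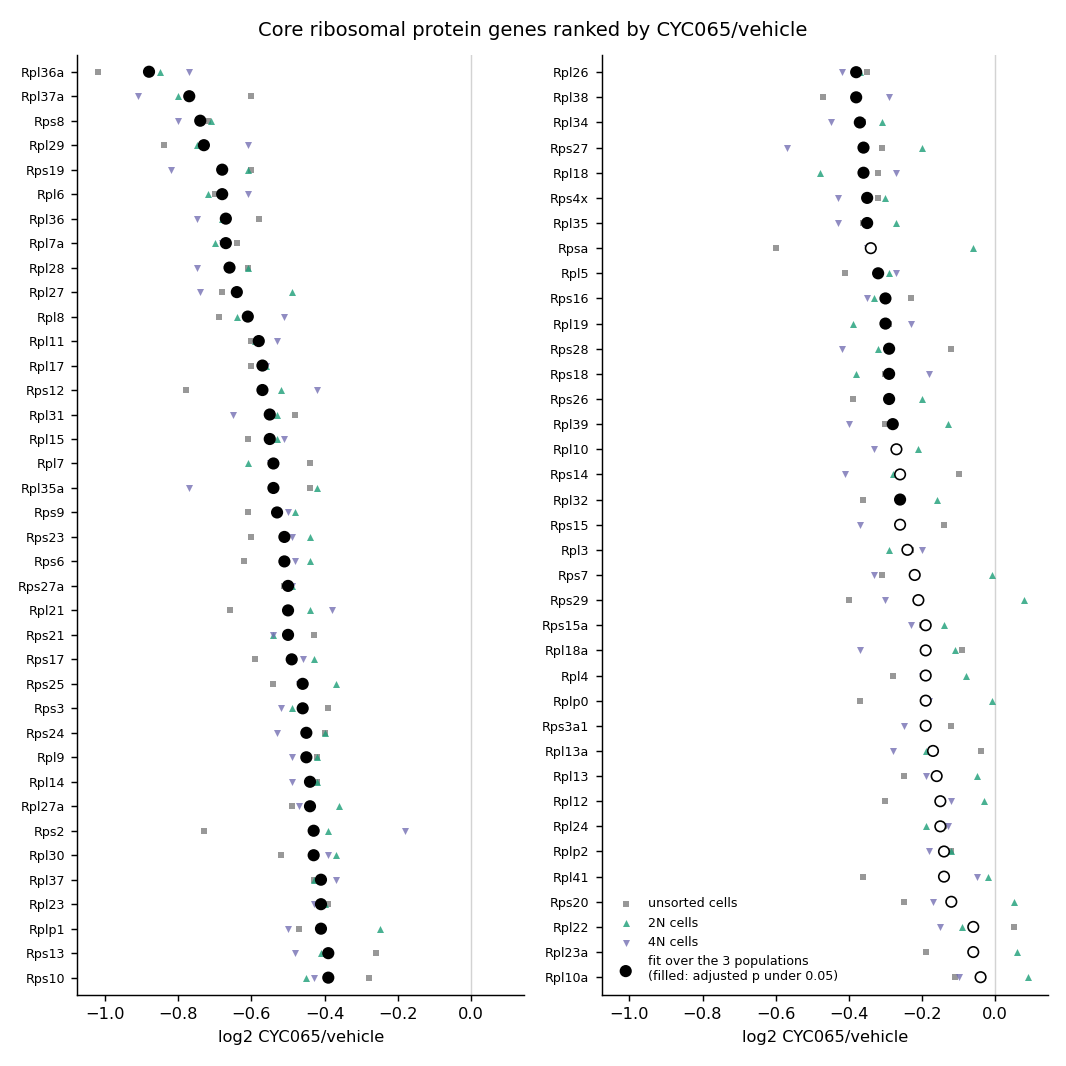
Log2 CYC065/vehicle (x axis) of 75 of the 77 core ribosomal protein genes, ranked by the value fitted over the 3 populations (circles, filled where the adjusted p was under 0.05), with the values in unsorted cells (squares), 2N cells (upward triangles) and 4N cells (downward triangles). The 53 filled circles lie between -0.88 (Rpl36a) and -0.26 (Rpl32), and Rpl10a, Rpl22 and Rpl23a lie closest to 0.

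Rpl36a, a large-subunit protein near the ribosomal E site, fell most. It had 172 CPM in vehicle and 84.5 CPM in CYC065 unsorted cells, 175 and 97.1 CPM in 2N cells, and 153 and 89.6 CPM in 4N cells. All 3 CYC065 libraries were below all 3 vehicle libraries. Its log2 change was -0.88 (edgeR, adjusted p = 0.000903), and -1.02 in unsorted cells alone (counting interval -1.08 to -0.97). Rpl37a, a zinc finger protein of the large subunit, had 282 and 187 CPM, 320 and 183 CPM, and 287 and 153 CPM in the same pairs (log2 change -0.77, edgeR, adjusted p = 0.00165). The groups did not overlap for Rpl37a either, and its difference was widest in 4N cells, at -0.91 (-0.95 to -0.88).

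At the other end, Rpl10a, part of the mobile L1 stalk, had 395 and 367 CPM in unsorted cells, 340 and 362 CPM in 2N cells, and 339 and 316 CPM in 4N cells with vehicle and CYC065. Rpl22, a large-subunit protein with a paralog in Rpl22l1, had 98.2 and 102 CPM, 104 and 97.8 CPM, and 96.4 and 87.1 CPM in these pairs. Rpl23a, which lies at the exit of the peptide tunnel, had 688 and 605 CPM, 546 and 568 CPM, and 556 and 534 CPM. In each of the 3 genes the vehicle and CYC065 libraries overlapped. Their fitted log2 changes were -0.04, -0.06 and -0.06 (edgeR, adjusted p = 0.734, 0.586 and 0.613).

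The stalk proteins, which recruit translation factors to the large subunit, were not alike, and 1 of the 3 fell. Rplp0, the base of the stalk, had 1447 and 1120 CPM in unsorted cells, 1387 and 1377 CPM in 2N cells, and 1442 and 1270 CPM in 4N cells with vehicle and CYC065, a log2 change of -0.19 that was not called (edgeR, adjusted p = 0.221). Rplp2 was not called either (-0.14, edgeR, adjusted p = 0.203). Rplp1 fell by 0.41 on the log2 scale (edgeR, adjusted p = 0.0147), from 459 to 331 CPM in unsorted cells, from 499 to 419 CPM in 2N cells and from 503 to 355 CPM in 4N cells. Rplp1 lost its call without the 4N libraries (edgeR, adjusted p = 0.102). In unsorted cells, Rplp0, Rplp1 and Rplp2 stood at -0.37, -0.47 and -0.12.

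Rpl5 and Rpl11 form the particle with 5S rRNA that can bind Mdm2. Rpl11 fell from 281 to 185 CPM in unsorted cells, from 306 to 203 CPM in 2N cells and from 281 to 194 CPM in 4N cells (log2 change -0.58, edgeR, adjusted p = 0.00245). The change of Rpl5 was smaller, from 355 to 268 CPM, from 371 to 304 CPM and from 352 to 292 CPM (log2 change -0.32, edgeR, adjusted p = 0.023). Rpl5 was no longer called without the 2N or the 4N libraries (edgeR, adjusted p = 0.117 and 0.0964). In the small subunit, Rps6, the substrate of S6 kinase, had 609, 617 and 595 CPM in the vehicle and 397, 454 and 427 CPM in the CYC065 libraries (unsorted, 2N and 4N). It fell by 0.51 on the log2 scale (edgeR, adjusted p = 0.0057). Rps27a, made as a fusion with ubiquitin, had nearly the same change in the 3 populations, at -0.51, -0.49 and -0.49 (edgeR, adjusted p = 0.00412). Rpsa, also known as the laminin receptor precursor, showed the widest disagreement of these genes. It had 1424 and 937 CPM in unsorted cells, 1250 and 1198 CPM in 2N cells, and 1397 and 1098 CPM in 4N cells, and was not called (log2 change -0.34, edgeR, adjusted p = 0.0789). With DESeq2 and with no filter on low counts its adjusted p was 0.0144 and 0.0147.

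Of the 15 paralogs and retrogenes, 9 had enough counts to be tested and 3 of these fell (33.3%), a share near the 27.1% of all genes. Rpl7l1, a paralog of Rpl7 with a known part in large-subunit assembly, fell most of all members. It had 123 and 38.7 CPM in unsorted cells, 173 and 43.4 CPM in 2N cells, and 163 and 40.9 CPM in 4N cells with vehicle and CYC065, a log2 change of -1.89 (edgeR, adjusted p = 0.000356). In 2N cells the counting interval of its change was -2.06 to -1.93. Rpl7 itself fell by 0.54 on the log2 scale (edgeR, adjusted p = 0.00517). Rps27l, the paralog of Rps27, had 55.4 and 29.3 CPM, 45.9 and 27 CPM, and 52.2 and 25.7 CPM in the 3 pairs (log2 change -0.90, edgeR, adjusted p = 0.00105), and Rps27 fell by 0.36 (edgeR, adjusted p = 0.0267). Rpl36al, whose protein is nearly identical to that of Rpl36a, fell by 0.72 (edgeR, adjusted p = 0.0033). Rps19bp1, the binding partner of Rps19, had 29.7 and 13.8 CPM, 48.7 and 16.6 CPM, and 46.9 and 16.1 CPM in the pairs, and fell by 1.40 (edgeR, adjusted p = 0.00065). It shares no 50-base stretch with another gene.

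Rpl22l1, which can stand in for Rpl22 in the ribosome, had opposite changes in the populations. In unsorted cells it had 22.4 CPM with vehicle and 14.1 CPM with CYC065 (log2 change -0.67, counting interval -0.80 to -0.54). In 2N cells it had 8.33 and 12.1 CPM (0.54, interval 0.37 to 0.71) and in 4N cells 9.29 and 10.7 CPM (0.21, interval 0.05 to 0.37). The fit over the populations made no call (log2 change 0.02, edgeR, adjusted p = 0.939). The vehicle unsorted library stood above the other 5, and the 4 sorted libraries lay between 8.33 and 12.1 CPM. The remaining tested paralogs were retrogenes with near-identical parents. All had few counts except Rpl37rt, with 587 to 1071 counts per library. Rps12l1, Rps3a2 and Rps27rt had log2 changes of -0.43, -0.15 and -0.26, none called (edgeR, adjusted p = 0.246, 0.536 and 0.549). Rpl6l and Rpl37rt, which were outside the listed paralogs and are named after their values were seen, were at -0.78 and -0.01 (edgeR, adjusted p = 0.0671 and 0.969). The other 6 (Rpl3l, Rpl10l, Rpl32l, Rpl39l, Rps3a3 and Rps4l) had at most 0.225 CPM in every library and were not tested.

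**Figure D4:**
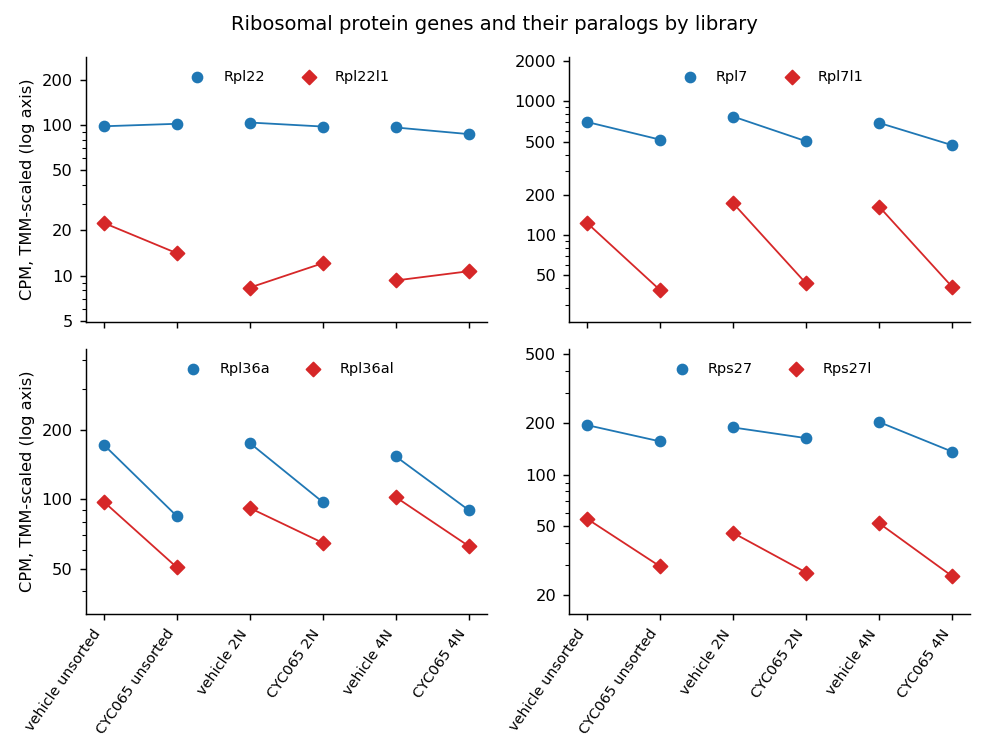
Level in CPM after TMM scaling (logarithmic y axis) of 4 ribosomal protein genes (circles) and their paralogs (diamonds) in the 6 libraries, with lines joining the vehicle and CYC065 library of a population. Rpl7l1 was lower with CYC065 in each pair (173 and 43.4 CPM in 2N cells), whereas Rpl22l1 was lower in unsorted cells and higher in 2N and 4N cells.

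To set the shared fall of the core genes beside their shared start, promoters were read from RefSeq (GRCm38.p6), which held 68 of the 93 members and 57 of the 77 core genes. A run of 8 or more bases that are each C or T, on the sense strand within the 15 bases before and the 15 after the annotated start, was found in 38.8% of the 67 core promoters. It was present in 12% of all 32851 promoters in the table. The following windows of 30 bases (5′ to 3′, the longest run in capitals, GRCm38.p6) belong to the 3 core genes with such a run that fell most, then to the 3 that changed least.
Rpl7a (chr2:26910792-26910821, plus strand, log2 change -0.67): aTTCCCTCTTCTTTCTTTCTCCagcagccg
Rpl28 (chr7:4792950-4792979, plus strand, log2 change -0.66): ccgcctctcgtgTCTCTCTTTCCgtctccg
Rpl31 (chr1:39367836-39367865, plus strand, log2 change -0.55): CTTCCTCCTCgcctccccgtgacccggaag
Rpl13a (chr7:45128731-45128760, minus strand, log2 change -0.17): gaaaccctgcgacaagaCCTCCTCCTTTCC
Rpl13 (chr8:123102335-123102364, plus strand, log2 change -0.16): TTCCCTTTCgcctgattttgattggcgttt
Rplp2 (chr7:141447636-141447665, plus strand, log2 change -0.14): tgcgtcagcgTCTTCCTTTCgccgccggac

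The same was done for core genes without a run of that length, here for 2 that fell most and 2 that changed least, and the capitals again mark the longest run of C and T in the window.
Rpl36a (chrX:134585639-134585668, plus strand, log2 change -0.88): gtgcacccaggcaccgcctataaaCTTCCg
Rpl37a (chr1:72711245-72711274, plus strand, log2 change -0.77): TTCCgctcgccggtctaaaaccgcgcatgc
Rpl22 (chr4:152324421-152324450, plus strand, log2 change -0.06): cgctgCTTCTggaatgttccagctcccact
Rpl10a (chr17:28328456-28328485, plus strand, log2 change -0.04): gtggcgCCCCCCCagcggccgcaaactgca

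The run did not separate the genes by their change. The 25 core genes with a run had a median log2 change of -0.37 (range -0.67 to -0.14) and the 32 without one had -0.39 (range -0.88 to -0.04). The annotated start can lie some bases away from the start used in these cells, so that a gene without a match in this window may still carry such a run in its mRNA. Where a gene had several promoters, as Rpl22 and Rpl10a did (2 each), the one with the longest run is shown. The window shown for Rpl22 lies upstream of the gene's bounds in GENCODE M21, which begin at base 152325742 of chromosome 4.

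Other features of the genes were set beside the change. Core genes lie on 19 chromosomes, with 14 on chromosome 7 and 4 on the X chromosome. The 30 core genes that hold a small nucleolar RNA gene within their bounds had a median log2 change of -0.33, and the 47 others -0.41. The 9 core genes with under 30% of their 50-mers in another gene had a median of -0.26 (range -0.61 to -0.06), and the 31 with over 70% had -0.39 (range -0.88 to -0.04). Across the 77 core genes, which differ in level and base composition and share the same libraries, the mean change had a Pearson r of 0.18 with transcript length, -0.09 with GC content, 0.21 with the log2 level and -0.12 with the share of 50-mers found in other genes.

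The effect of DNA content was small in both treatments. With vehicle, the median log2 ratio of 4N to 2N cells over the core genes was -0.05, with 50 of the 77 genes below 0 (49.9% of all genes tested). With CYC065 it was -0.12, with 71 of the 77 below 0 (49.7% of all genes), including all 31 genes of the small subunit and 40 of the 46 genes of the large subunit. None of the members passed 1 in either direction, against 2.75% of all genes with vehicle and 3.62% with CYC065. The difference between these ratios had a median of -0.07, with 55 core genes below 0 (49.1% of all genes) and none beyond 1 (7.31% of all genes). These comparisons share libraries with those of CYC065 against vehicle, and with 1 library per group they were not tested.

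With vehicle and before pseudogene rows were added, Rps18, a protein in the head of the small subunit, had the lowest ratio, with 112 CPM in 2N and 86.7 CPM in 4N cells (log2 ratio -0.37, counting interval -0.43 to -0.32). Rpl3, which reaches the peptidyl transferase center, had 281 and 234 CPM, and Rps2, at the mRNA entry of the small subunit, had 214 and 179 CPM, both a log2 ratio of -0.26. The highest ratios were those of Rps7 (296 and 351 CPM, 0.24), Rps29 (220 and 260 CPM, 0.24) and Rpsa (1250 and 1397 CPM, 0.16), all of the small subunit. With CYC065, the ratios of these 3 genes were -0.07, -0.13 and -0.13. The lowest ratios with CYC065 were those of Rps14 (421 CPM in 2N and 347 CPM in 4N cells, -0.28), Rps27 (163 and 136 CPM, -0.26) and Rpl37a (183 and 153 CPM, -0.26). The highest were Rpl29 (9.76 and 10.7 CPM, 0.13, counting interval -0.03 to 0.29), Rpl30 (235 and 248 CPM, 0.08) and Rpl6 (569 and 589 CPM, 0.05). The interval of Rpl29 included 0, and its ratio was -0.04 when its pseudogene family was summed as described next.

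Reads that fit several places bear on these levels. RSEM divided such reads, which leaves fractional counts, and 75 of the 77 core genes had a fractional value in at least 1 column. Fractional values stood in all 18 columns for 59 of the 93 members. In the median core gene, 57.4% of the 50-base stretches of its principal transcript also occurred in another annotated gene, up to 98.6% in Rps27, 92.4% in Rps10 and 92.1% in Rpl10. The table also held 300 rows named as pseudogenes of ribosomal proteins, whose counts came to 9.37% to 10.6% of the members' counts in each library. When the rows that share at least 50% of their 50-mers with a member were added to it, Rps2 held 9.1% of its family's counts in vehicle 2N cells, Rpl29 11.4%, Rps18 19.7%, Rpl34 29.6% and Rpl3 33%. How far these counts belong to the parent genes was not tested. The 4N to 2N ratio of Rps18 with vehicle went from -0.37 to -0.19 when its family was summed, that of Rps2 from -0.26 to -0.16 and that of Rpl3 from -0.26 to -0.06. These 3 were then no longer the lowest core genes, since Rpl19 and Rps12 stood at -0.22 and Rpl38 and Rpl36a at -0.21. The family sums of Rps2 for CYC065 against vehicle were -0.71 in unsorted cells, -0.33 in 2N cells and -0.27 in 4N cells, beside -0.73, -0.39 and -0.18 for the gene alone. The medians of the core genes were -0.39, -0.37 and -0.42 in the 3 populations with the families summed. Rps21, which had no fractional counts, fell by 0.50 on the log2 scale (edgeR, adjusted p = 0.00392).

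Levels between genes were compared per kilobase of principal transcript, as the mean over the 6 libraries. The median core gene had 444 CPM per kilobase. Over the gene rows alone, Rpl23a was highest, with 1041, followed by Rplp0 with 987 and Rpl8, a protein of the peptidyl transferase center, with 948 CPM per kilobase. Rpl29 was lowest, with 22.5 CPM per kilobase, and 6 rows share at least 50% of their 50-mers with it. Rps20 had 57.8, which may be understated because its only annotated principal transcript, of 3706 bases, is the longest among the core genes. Rpl34 had 137 CPM per kilobase. This order does not hold for families summed, where Rps2 had 135295 counts over 998 bases in vehicle 2N cells and Rpl23a had 31763 counts over 560 bases.

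Genes of the wider machinery were counted in the same fit, in which 27.1% of all genes fell, from lists made with earlier results in view. Ribosome biogenesis factors, which process ribosomal RNA and assemble the subunits in the nucleolus, fell in 46 of 46 cases with a median log2 change of -1.08. Nhp2 and Rrp12 fell most, to log2 changes of -2.16 and -1.98 (edgeR, adjusted p = 0.000356 and 0.000458), and Nop10 and Rrp1 least, with -0.50 and -0.36 (edgeR, adjusted p = 0.0118 and 0.018). Of 15 genes for transcription of ribosomal RNA, 10 fell and 0 rose, with a median of -0.63. Cd3eap and Polr1b of RNA polymerase I fell most, with log2 changes of -2.77 and -1.28 (edgeR, adjusted p = 0.000331 and 0.000472), while Twistnb and Taf1d were at -0.12 and -0.09. The mitochondrial ribosomal proteins, a separate set taken by the symbols Mrpl and Mrps after the data were seen, fell in 58 of 78 cases and rose in 0, with a median of -0.63. Mrps2 was at -2.41 and Mrpl17 at -2.08, and Mrps30 and Mrps9 were at 0.16 and 0.18. Of 15 other translation genes and genes with a TOP sequence, 7 fell and 0 rose, with a median of -0.32, from Npm1 at -1.08 and Hnrnpa1 at -0.99 to Eif3h at 0.14 and Eif4b at 0.16.

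Among ribosomal proteins whose symbols the rule does not reach, Rack1 fell by 0.52 (edgeR, adjusted p = 0.00811). Fau, which like Rps27a is made as a fusion, was at -0.24 (edgeR, adjusted p = 0.111). Of 8 regulators of TOP mRNAs and ribosomal protein genes, 1 fell and 0 rose, with a median of -0.04. Larp1, which binds the TOP sequence, fell by 0.55 (edgeR, adjusted p = 0.00508), and Rps6kb2 was at -0.23 (edgeR, adjusted p = 0.169). Rps6kb1 was at 0.14 and Myc at 0.48 (edgeR, adjusted p = 0.237 and 0.104). Myc differed between the populations, at -0.20 in unsorted, 0.77 in 2N and 0.87 in 4N cells. The core genes themselves stood at a median of -0.39, closer to 0 than the biogenesis factors and close to the other TOP genes; differences between lists were not tested.

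**Figure D5:**
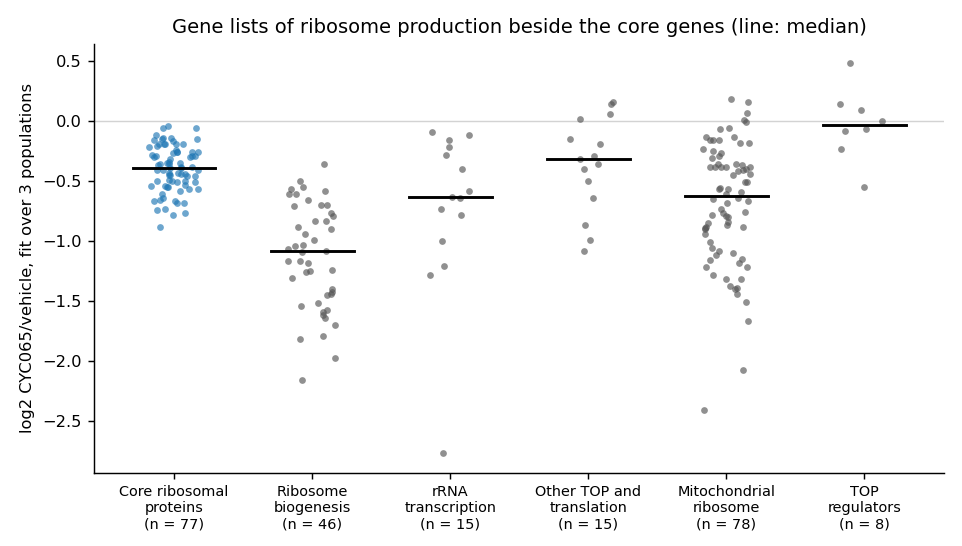
Log2 CYC065/vehicle fitted over the 3 populations (y axis, 1 point per gene, black line for the median) for the core ribosomal protein genes (blue) and 5 lists of other genes of ribosome production and its control (grey). The core genes have a median of -0.39 and all lie below 0, the biogenesis factors a median of -1.08, and the regulators a median of -0.04.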

How the data were processed

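RNA was depleted of ribosomal RNA (Ribo-Zero Plus), made into stranded total RNA libraries and sequenced as paired ends. Per the study's methods, the authors trimmed reads with Cutadapt, aligned them with STAR to mm10 and estimated expected counts per GENCODE M21 gene with RSEM. The submitters' processing notes name cutadapt 1.18, STAR 2.7.0f and RSEM 1.3.1, and the methods give another version of RSEM. The deposited values are expected counts, neither normalized nor filtered. They were summed over the 3 parts of each library and rounded to whole numbers for the tests. RSEM divides reads that fit several genes, so values of genes with pseudogenes are estimates.

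All 55450 identifiers matched GENCODE M21. Analysis used R 4.3.3, edgeR 4.0.16 and DESeq2 1.42.0, with Python 3.11.15. Libraries were TMM-scaled together. Genes were kept where a library compared had 30 counts or more, and the prior count was 0.125. Differences between 2 libraries have no p-value, and those beyond 1 (log2) were counted. Transcript length is that of the shortest principal protein-coding transcript.

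Genes described singly were the 3 core genes with the largest and smallest CYC065 change, 4N/2N ratio in each treatment and level per length (at least 100 counts in every library for the first 2), the 3 with the highest share of 50-mers in other genes, tested paralogs, stalk genes, Rpl5, Rpl11, Rps6, Rpsa, Rps27a and Rps19bp1, and the 2 extremes at each end of other lists. Some genes are not reported here. The members and lists were chosen with earlier results of these data known. On simulated data for the shared CYC065 effect, with 14046 genes, 200 of 200 changed genes and 12 unchanged genes were called. The simulation had a smaller spread between libraries than these data and no differences between populations. Its changes were larger than the core median of -0.39. It therefore does not measure how often this test misses or miscalls genes in these data. Alternatives were other scalings and filters, DESeq2, a prior count of 2, leaving out parts or populations, and summing pseudogenes.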

Additional observations from a re-analysis of the deposited data

Results flagged for a closer look

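Among the members described singly, several had changes of opposite sign under the same contrast, with counting intervals on either side of 0 and the same sign in each of the 3 parts. With 1 library per group, these differences were not tested. For CYC065 against vehicle in 2N and in 4N cells, the log2 changes were 0.09 and -0.10 for Rpl10a, 0.06 and -0.06 for Rpl23a, 0.08 and -0.30 for Rps29, 0.05 and -0.17 for Rps20, and 0.36 and -0.52 for the retrogene Rpl37rt. For 4N against 2N cells with vehicle and with CYC065, they were 0.24 and -0.07 for Rps7, 0.24 and -0.13 for Rps29, 0.16 and -0.13 for Rpsa, 0.11 and -0.26 for Rps27, 0.06 and -0.12 for Rplp0, and 0.05 and -0.07 for Rpl10. Rpl6 went the other way, with -0.06 and 0.05. Members not described singly were left out of this list. Some of them also had counting intervals on either side of 0, such as Rpl27 (0.15 and -0.10) and Rpl18 (-0.17 and 0.04). The share of all genes with such a change of sign was not computed. Both contrasts use the same 4 sorted libraries. The rows named as ribosomal protein pseudogenes, which enter no comparison on their own, held 187682 counts in vehicle 2N cells.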

How the results depend on the processing

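The medians of the core genes stayed below 0 in all 6 comparisons of libraries under each alternative. With library size scaling only, which moved the median of all genes to -0.12 in unsorted and 0.11 in 4N cells, the core medians for CYC065 against vehicle were -0.51, -0.31 and -0.34 in unsorted, 2N and 4N cells, and those for 4N against 2N were -0.04 with vehicle and -0.09 with CYC065. With DESeq2 size factors the median was -0.46 in 4N cells, -0.03 and -0.13 for 4N against 2N cells with vehicle and CYC065, and -0.10 for the difference between these ratios. With no filter on low counts the medians were -0.46, -0.45 and -0.48 for CYC065, and -0.10 for 4N against 2N with CYC065. With a minimum of 100 counts they were -0.36 and -0.34 in unsorted and 2N cells. The 2 core genes without fractional counts had medians of -0.29, -0.40, -0.46, -0.07 and -0.13 in the 5 comparisons. Without each part in turn, the medians ran from -0.41 to -0.39 (unsorted), -0.38 to -0.35 (2N), -0.43 to -0.40 (4N) and -0.12 to -0.11 (4N against 2N with CYC065).

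The number of core genes called lower over the populations was 54, and 28 without the 2N and 27 without the 4N libraries, where 1 residual degree of freedom remains. It was 61 without the unsorted libraries and 67 with DESeq2. With library size scaling only it was 48 (25.3% of all genes lower), and without each part it was 51 to 56 (27.4% of all genes without part 1). The shares of all genes with DESeq2 and without the 2N or the 4N libraries are given above. No such share is given for the count without the unsorted libraries. No paired analysis was possible because the replicate numbers mark parts of 1 library and the comparisons of 2 libraries come from no test. The summing of families by 50-mers was chosen after seeing the data. Each core gene had at least 493 counts in every library. The spread between cultures was not measured.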
